A study of Mus musculus with 6 samples.

Results

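Osteoclasts, the cells that resorb bone and tooth roots, were followed through 10 genes in the RNA of the mouse incisor after loss of *Arid1b*. The genes were chosen by name: the osteoclast genes *Acp5*, *Ctsk*, *Atp6v0d2*, *Dcstamp* and *Ocstamp*, and the signals and receptors *Tnfsf11*, *Tnfrsf11a*, *Tnfrsf11b*, *Csf1* and *Csf1r*. All 10 were found among the 19270 genes of the table. RNA was sequenced from the dissected proximal incisor mesenchyme of 3 control and 3 mutant samples, 1 library each, 4 days after tamoxifen given at 1 month of age. The mutants carried Gli1-CreER;Arid1b fl/fl, where the *Gli1* promoter limits the tamoxifen-activated Cre to cells expressing *Gli1*, a lineage that gives both mesenchyme and epithelium in this tooth. The controls are labelled wild type, the methods describe them as Arid1b fl/fl mice, and both groups received tamoxifen.

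Osteoclasts form when precursors of the monocyte lineage fuse into multinucleated cells. Stromal cells steer this with a pair of signals: M-CSF, encoded by *Csf1* and sensed by the receptor CSF1R, keeps the precursors alive, and RANKL, encoded by *Tnfsf11*, binds the receptor RANK, encoded by *Tnfrsf11a*, and drives them to become osteoclasts. OPG, encoded by *Tnfrsf11b*, is a secreted decoy receptor that captures RANKL. Around a tooth, osteoclasts clear the surrounding bone so that the tooth can grow and erupt.

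The values are the authors' means of a normalized signal over the 3 libraries of a group. For 6 of the 10 genes the reads of each of the 6 libraries could be recovered from these means, because a value in a library is its reads, with 1 added, times a constant of that library. The reads of *Acp5*, *Tnfrsf11a*, *Csf1* and *Csf1r* could not be recovered, so for these 4 only the authors' group means were used, and neither a spread between libraries nor a test is given here. The libraries held an estimated 37123643 to 49594469 reads on the listed genes. The label check held: the authors' means of *Arid1b* were 97.6 (control) and 38.0 (mutant). The groups also differed in sex-linked RNA: the Y-linked gene *Ddx3y* had a mean of 65.3 in the mutants and no reads in any control library, and *Xist*, the RNA of the inactive X chromosome of females, had means of 3368 (control) and 814 (mutant). Both transcripts were thus present in the mutant mean, which does not give the sex of each mutant library, and the part of sex in the values was not tested. Epithelial markers were higher in the mutants, although the tissue was dissected as mesenchyme. Of the 10 reported here 8 were more than 1.5-fold higher, against 7.37% of all genes. Their summed means were 651 (control) and 1308 (mutant).

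The 5 genes among the 10 that were past 1.5-fold, the fold used in the study, were all higher in the mutants: *Acp5*, *Atp6v0d2*, *Dcstamp*, *Ocstamp* and *Tnfsf11*. The study also required an FDR of at most 0.1, which was not applied to these ratios. Among all 19270 genes, 7.37% were more than 1.5-fold higher in the mutants and 5.8% more than 1.5-fold lower. The median log2 ratio of mutant to control was 0.53 over the 10 genes and 0.0022 over all genes. Most of the 5 genes had low signal. All 4 of the genes with a mean under 2 were past 1.5-fold, at a level where 16.7% of genes were as far higher, a limit of 2 that was chosen after the values were seen. Of the other 6 genes, only *Acp5* was past 1.5-fold, and 2.15% of the genes whose mean reached 10, as that of *Acp5* did, were this far higher.

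**Figure D1:**
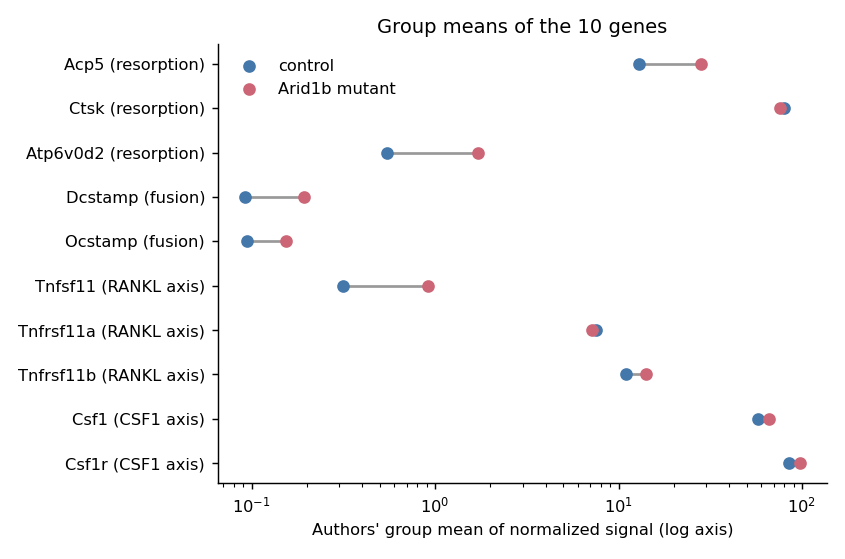
Authors' group means of normalized signal on a log axis for the 10 genes, with the control and the mutant mean of each gene joined by a line. *Acp5*, *Atp6v0d2*, *Dcstamp*, *Ocstamp* and *Tnfsf11* lie apart between the groups by more than 1.5-fold, while *Ctsk*, *Tnfrsf11a*, *Tnfrsf11b*, *Csf1* and *Csf1r* lie close together.

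The 10 genes spanned a wide range of levels. Per kilobase of merged exon, the control signal ran from 52.5 for *Ctsk* through 14.7 for *Csf1r*, 10.9 for *Csf1*, 6.37 for *Acp5*, 3.88 for *Tnfrsf11b* and 1.26 for *Tnfrsf11a* down to 0.201 for *Atp6v0d2*, 0.141 for *Tnfsf11*, 0.0347 for *Dcstamp* and 0.0258 for *Ocstamp*. In the mutants the order was the same except that *Acp5*, at a signal of 13.8 per kilobase, stood above *Csf1*, at 12.5. Neighbours at the low end were not separated by their spread. Per kilobase, the control libraries ran from 0.145 to 0.292 for *Atp6v0d2* and from 0.0589 to 0.222 for *Tnfsf11*, and from 0.00994 to 0.0744 for *Dcstamp* and from 0.00724 to 0.0432 for *Ocstamp*. The spread between libraries is unknown for the 4 genes without recovered reads, so their places in the order rest on means alone.

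The stretches of 150 bases just before a start site are shown for 3 genes with different ratios: the enzyme gene *Acp5*, whose mean was higher in the mutants, the enzyme gene *Ctsk*, whose mean was not, and *Tnfsf11*, the RANKL gene itself. They come from RefSeq on GRCm38.p6 and read 5′ to 3′ on the strand of the gene. Capitals mark 3 short motifs of factors active in osteoclasts, found on either strand: CATGTG, the E-box bound by MITF, GGAAA, the core bound by NFAT proteins such as NFATc1, and GAGGAA, the core bound by PU.1.
*Acp5*, chr9:22130599-22130748, minus strand: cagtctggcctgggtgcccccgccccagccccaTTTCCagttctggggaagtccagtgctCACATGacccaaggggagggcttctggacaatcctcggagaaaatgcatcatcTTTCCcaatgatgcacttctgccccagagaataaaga
*Ctsk*, chr3:95499060-95499209, plus strand: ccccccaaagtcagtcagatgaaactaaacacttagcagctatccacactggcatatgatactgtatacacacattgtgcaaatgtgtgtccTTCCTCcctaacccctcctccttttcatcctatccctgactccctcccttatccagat
*Tnfsf11*, chr14:78308044-78308193, minus strand: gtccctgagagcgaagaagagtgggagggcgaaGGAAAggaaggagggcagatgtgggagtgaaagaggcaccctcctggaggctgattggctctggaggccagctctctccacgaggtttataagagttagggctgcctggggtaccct

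The *Acp5* stretch lies before the innermost of 3 RefSeq starts, inside an intron of the longer transcripts, and held 1 MITF E-box and 2 NFAT cores. It is printed because it held the most motifs of the 3: the middle stretch held 1 NFAT core, and the outermost held none of the motifs searched. The stretch of *Ctsk* held 1 PU.1 core, and that of *Tnfsf11* 1 NFAT core. In stretches of the same length before all 32817 starts, the NFAT core was found in 37.6%, the PU.1 core in 14.5% and the MITF E-box in 7.15%. The letters TGANTCA, bound by AP-1, were in 4.24% of all starts and in none of the 7 stretches of the 5 genes with a RefSeq entry. None of the motifs overlapped another in the 3 printed stretches. These matches describe the letters only, and the expression values do not say which start was used.

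The 3 resorption genes did not share 1 pattern. *Acp5* encodes tartrate-resistant acid phosphatase, the classical stain for osteoclasts, and lies on chromosome 9 from 22126727 to 22135711 of GRCm38. Its authors' mean was 12.9 for the controls and 28.1 for the mutants, a ratio of 2.17 and a log2 ratio of 1.12. These means stand for an estimated 1497 and 3651 reads, so counting error is small beside the ratio, at 1.03 to 1.21 on the log2 scale, but the spread between libraries is unknown. A transcript on the other strand, *6530413G14Rik*, overlaps the gene, and since no source used here says whether strand was counted, its reads cannot be told apart from those of *Acp5*.

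*Atp6v0d2*, on chromosome 4 from 19876841 to 19922605, encodes a subunit of the proton pump that is abundant in osteoclasts and takes part in their fusion. It had 14, 16 and 31 reads in control 1, 2 and 3, and 95, 87 and 45 reads in mutant 1, 2 and 3. As normalized signal this was 0.395, 0.450 and 0.793 in the controls, and 1.84, 2.10 and 1.21 in the mutants. Every mutant library was above every control library, with the lowest mutant at 1.21 and the highest control at 0.793. The group values were 0.546 ± 0.215 in the controls and 1.71 ± 0.459 in the mutants (SD, n = 3 each). *Atp6v0d2* rose by 1.68 on the log2 scale (SE 0.356) in a limma fit over the 3965 genes with recovered reads, with an adjusted p = 0.0559 against a threshold of 0.1. In that fit 1.08% of genes were called higher and 0.277% lower, and *Atp6v0d2* was the 1 called gene among the 6 tested. In 8.27% of the 3965 genes every mutant was above every control.

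The call of *Atp6v0d2* was lost when 1 library was left out in 4 of the 6 cases: the limma adjusted p was 0.168 without control 1, 0.130 without control 2, 0.165 without mutant 1 and 0.323 without mutant 2. It was kept without control 3 and without mutant 3, at adjusted p = 0.0407 and 0.0492. The difference itself stayed between 1.48 and 1.99 on the log2 scale throughout. Other subunits of the proton pump were set beside *Atp6v0d2*. Of 14 general subunits none was past 1.5-fold, with log2 ratios from -0.12 to 0.20 and a median of 0.02. All 14 had a mean of at least 10, well above that of *Atp6v0d2*. Of all genes with such a mean 2.15% were more than 1.5-fold higher, so this count says little about a gene as low as *Atp6v0d2*. *Atp6v0d1*, which takes the place of *Atp6v0d2* in most cells, had means of 54.8 (control) and 56.9 (mutant).

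*Ctsk*, on chromosome 3 from 95499256 to 95509362, encodes cathepsin K, the protease with which osteoclasts digest collagen, and is also made by some mesenchymal cells. Its normalized signal was 89.3, 71.4 and 77.5 in control 1, 2 and 3, and 69.8, 88.9 and 69.3 in mutant 1, 2 and 3. The groups overlapped, with 2 of 3 mutants just below the lowest control. The group values were 79.4 ± 9.11 in the controls and 76.0 ± 11.2 in the mutants (SD, n = 3 each), a difference smaller than either spread. The limma difference was -0.07 on the log2 scale (SE 0.109, adjusted p = 0.875), with a 95% interval from -0.30 to 0.17. *Ctsk* was the most strongly read of the 6 recovered genes, with 2643 to 3726 reads a library, and its interval leaves out a fold of 1.5 in either direction. Of 10 other lysosomal cathepsins none was past 1.5-fold, and *Ctsb*, the one of highest mean, had 601.9 in the controls and 623.6 in the mutants. All 10 had a mean of at least 10, where 2.15% of genes were more than 1.5-fold higher.

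Both fusion genes were close to the lower limit of detection. *Dcstamp*, on chromosome 15 from 39745930 to 39760938, encodes DC-STAMP, the membrane protein required for precursors to fuse. It had 1, 0 and 7 reads in the control libraries and 5, 15 and 2 in the mutant libraries. *Ocstamp*, on chromosome 2 from 165393760 to 165400405, encodes the related OC-STAMP and had 5, 0 and 3 reads in the controls and 13, 6 and 0 in the mutants. For both genes the groups overlapped, and 1 library without a single read was found in the controls and, for *Ocstamp*, also in the mutants.

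The authors' means were 0.0924 in the controls and 0.192 in the mutants for *Dcstamp*, a ratio of 2.07, and 0.0945 and 0.154 for *Ocstamp*, a ratio of 1.63. Counting error alone spans a log2 ratio from 0.07 to 2.67 for the 8 against 22 reads of *Dcstamp*, and from -0.18 to 2.48 for the 8 against 19 reads of *Ocstamp* (exact 95% intervals, for counting error only). The limma differences were 1.21 (SE 1.02, adjusted p = 0.741) and 0.50 (SE 1.14, adjusted p = 0.920) on the log2 scale. The difference of *Dcstamp* was 0.56 without control 2, 0.54 without mutant 2 and 2.02 without control 3, and that of *Ocstamp* turned negative without control 2 or without mutant 1. Neither gene passed the test, and the 95% limma intervals, from -1.02 to 3.45 for *Dcstamp* and from -2.01 to 3.01 for *Ocstamp*, were wider than the counting intervals.

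**Figure D2:**
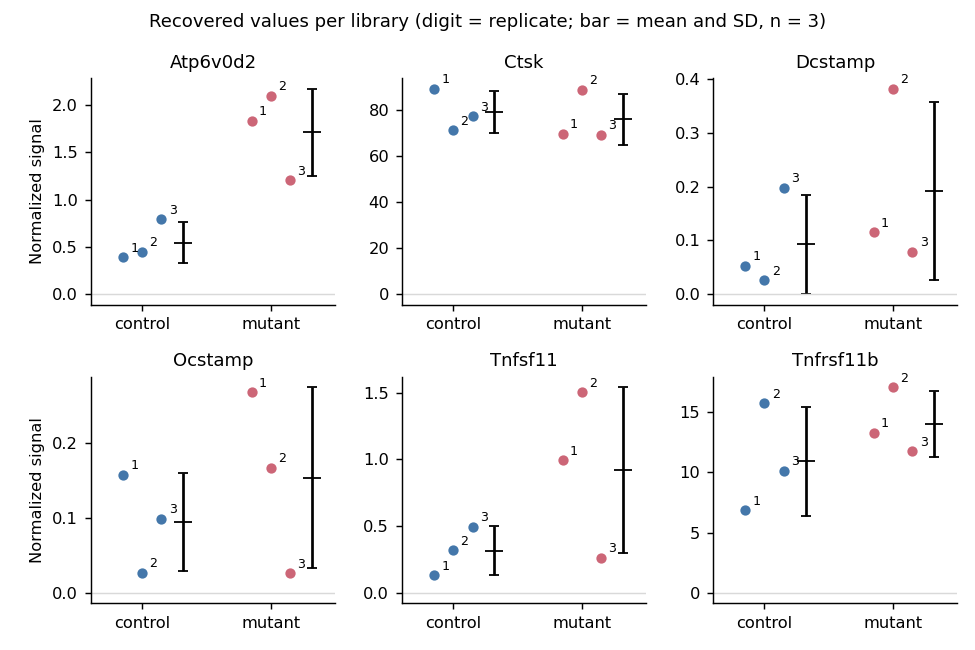
Normalized signal per library for the 6 genes with recovered reads, 1 panel a gene, with the digit giving the replicate and the black bar the mean and SD of 3 libraries. *Atp6v0d2* is the only gene of the 6 whose mutants all lie above the controls, and mutant 3 is the lowest mutant in every panel.

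Among the signals and receptors, *Tnfsf11* had the largest ratio between the groups, and its mutants were spread widely. The gene, on chromosome 14 from 78277445 to 78308043, had 4, 11 and 19 reads in control 1, 2 and 3, and 51, 62 and 9 reads in mutant 1, 2 and 3. Its normalized signal was 0.132, 0.318 and 0.495 in the controls, and 0.995, 1.504 and 0.262 in the mutants. Mutants 1 and 2 were above every control, while mutant 3 lay within the range of the controls. The group values were 0.315 ± 0.182 and 0.920 ± 0.624 (SD, n = 3 each), a ratio of 2.92.

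The limma difference of *Tnfsf11* was 1.41 on the log2 scale (SE 0.657), with an unadjusted p = 0.0537 and an adjusted p = 0.501, so it did not pass. Its 95% interval, from -0.03 to 2.85, reaches from no difference to one larger than the ratio of the means. Leaving out mutant 3 gave a difference of 2.15 with an adjusted p = 0.127, and leaving out control 1 gave 0.88 with an adjusted p = 0.757. Within each group *Tnfsf11* and *Atp6v0d2* put the libraries in the same order, with control 1 lowest and control 3 highest, and mutant 3 lowest and mutant 2 highest. The order of the mutants was not particular to these genes. It was the same for *Ctsk*, *Dcstamp* and *Tnfrsf11b*, and for genes of other lists such as the macrophage markers *C1qa* and *C1qb*. The controls of these genes stood in other orders, and *Ocstamp* differed in both groups. These orders only describe 3 libraries a group.

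*Tnfrsf11b*, on chromosome 15 from 54250619 to 54278484, encodes the decoy OPG and was far better covered than *Tnfsf11*, at 259 to 716 reads a library. Its normalized signal was 6.84, 15.8 and 10.2 in control 1, 2 and 3, and 13.3, 17.1 and 11.7 in mutant 1, 2 and 3. The groups overlapped, and the group values were 10.9 ± 4.51 and 14.1 ± 2.76 (SD, n = 3 each). The limma difference was 0.43 on the log2 scale (SE 0.256, adjusted p = 0.639).

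Since OPG captures RANKL, the ratio of their transcripts was formed in each library. For 1000 units of *Tnfrsf11b* signal there were 19.2, 20.2 and 48.8 units of *Tnfsf11* signal in control 1, 2 and 3, and 74.7, 87.9 and 22.3 units in mutant 1, 2 and 3. Mutants 1 and 2 were above every control, and mutant 3 was between controls 2 and 3. On the log2 scale the mean ratio was -5.23 ± 0.756 in the controls and -4.25 ± 1.08 in the mutants (SD, n = 3 each), a difference of 0.98 (exact two-sided permutation test, p = 0.2, where 3 libraries against 3 cannot go below 0.1). From the authors' group means the same difference was 1.18. With 1 library left out it ran from 0.62 without mutant 2 to 1.60 without mutant 3.

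**Figure D3:**
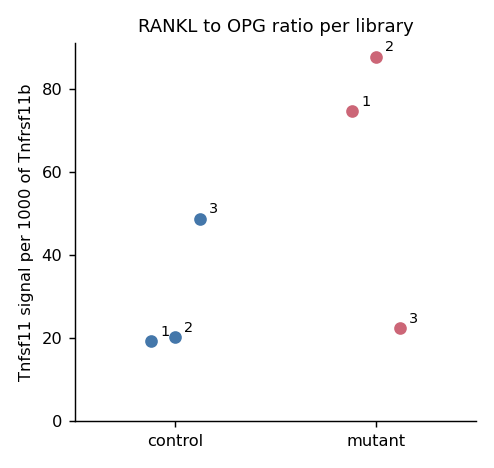
*Tnfsf11* signal for 1000 units of *Tnfrsf11b* signal in each of the 6 libraries, with the digit giving the replicate. Mutants 1 and 2, at 74.7 and 87.9, are above the 3 controls, and mutant 3, at 22.3, is among them.

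The receptors and the M-CSF signal differed little. *Tnfrsf11a*, on chromosome 1 from 105780718 to 105847981, encodes RANK and had authors' means of 7.53 (control) and 7.14 (mutant), a log2 ratio of -0.08. *Csf1*, on chromosome 3 from 107741048 to 107760469, had means of 57.5 and 65.9, a log2 ratio of 0.20. Its receptor gene *Csf1r*, on chromosome 18 from 61100598 to 61132149, which marks macrophages and osteoclast precursors alike, had means of 84.8 and 97.3 and also a log2 ratio of 0.20. None of the 3 was past 1.5-fold, and no spread between libraries can be given for them. *Csf1r* overlaps *Hmgxb3* on the other strand, which had means of 35.7 and 36.9.

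In bulk tissue, more cells of a type and more RNA per cell cannot be told apart. The levels were therefore set beside markers of the cells that share these genes. Of 14 macrophage markers none was past 1.5-fold, with log2 ratios from -0.15 to 0.45, a median of 0.12 and summed means of 533 (control) and 570 (mutant). By direction, 12 of the 14 were higher in the mutants, while the median log2 ratio over all genes was 0.0022. Of these markers 11 had a mean of at least 10, where 2.15% of genes were more than 1.5-fold higher. *Lyz2*, the lysozyme gene and the one of highest mean, had 125.8 in the controls and 131.7 in the mutants. Per library the complement gene *C1qb* was 35.4 to 47.6 in the controls and 39.7 to 48.8 in the mutants, and the groups overlapped. The log2 ratio of *Csf1r* lay inside the range of these macrophage markers, and that of *Acp5* lay above it.

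Other genes that osteoclasts use for acid, adhesion and digestion were mostly close to equal between the groups. Of the 16 genes in this list 14 were analysed, 3 were past 1.5-fold, all higher in the mutants, and the median log2 ratio was 0.18. Over all genes 7.37% were this far higher, and 16.7% where the mean was under 2, as for *Oscar*. *Mmp9*, a matrix protease of osteoclasts that other cells also make, had means of 9.25 (control) and 16.9 (mutant), a log2 ratio of 0.87. *Itgav*, an integrin subunit that is widespread in other cells and had the highest mean of the list, had 183 in the controls and 220 in the mutants. The other 2 genes past 1.5-fold were named after their values were seen. *Slc9b2*, a sodium/proton exchanger abundant in osteoclasts, had means of 0.656 (control) and 3.74 (mutant), a ratio of 5.70. *Oscar*, a receptor that supports osteoclast formation, had 5, 4 and 5 reads in the control libraries and 9, 22 and 13 in the mutant libraries.

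Every mutant library of *Oscar* was above every control library, as in 8.27% of the 3965 genes with recovered reads. The limma difference of *Oscar*, 1.21 on the log2 scale (SE 0.541), had an adjusted p = 0.467 and did not pass. The 11 others, among them the proton pump subunit gene *Tcirg1*, the chloride channel gene *Clcn7*, the carbonic anhydrase gene *Car2* and the integrin gene *Itgb3*, were within 1.5-fold. *Tcirg1* had means of 22.4 (control) and 20.4 (mutant), and *Itgb3* 4.20 and 4.75. These 4 were picked as examples after their values were seen. *Calcr* and *Siglec15* were not analysed here.

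The 19 genes of RANK signalling and osteoclast transcription that are reported here, which are not the whole list, had log2 ratios from -0.27 to 0.43 and a median of 0.13. *Nfatc1*, the master transcription factor of osteoclasts, had means of 20.6 (control) and 20.9 (mutant), and *Map3k7*, a kinase below RANK and the gene of highest mean, had 128 and 127.

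Signals that act on RANKL or M-CSF showed no common direction. Of 17 genes in this list 16 were analysed, 3 were past 1.5-fold, all higher in the mutants, and the median log2 ratio was -0.11. Over all genes 7.37% were this far higher, and 16.7% where the mean was under 2, as for *Il1a* and *Il1b*. *Pthlh*, which encodes the parathyroid hormone-related protein that induces RANKL around teeth, had means of 14.5 (control) and 23.2 (mutant), a log2 ratio of 0.68. *Il6st*, the shared receptor chain of the interleukin-6 family and the gene of highest mean, had 317 and 270. The other 2 were the interleukin-1 genes, named after their values were seen. *Il1a* had 2, 0 and 7 reads in the control libraries and 21, 14 and 11 in the mutant libraries, with a limma difference of 2.28 (SE 0.753, adjusted p = 0.301). *Il1b* had means of 0.277 (control) and 0.953 (mutant). *Il6* was not analysed here.

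**Figure D4:**
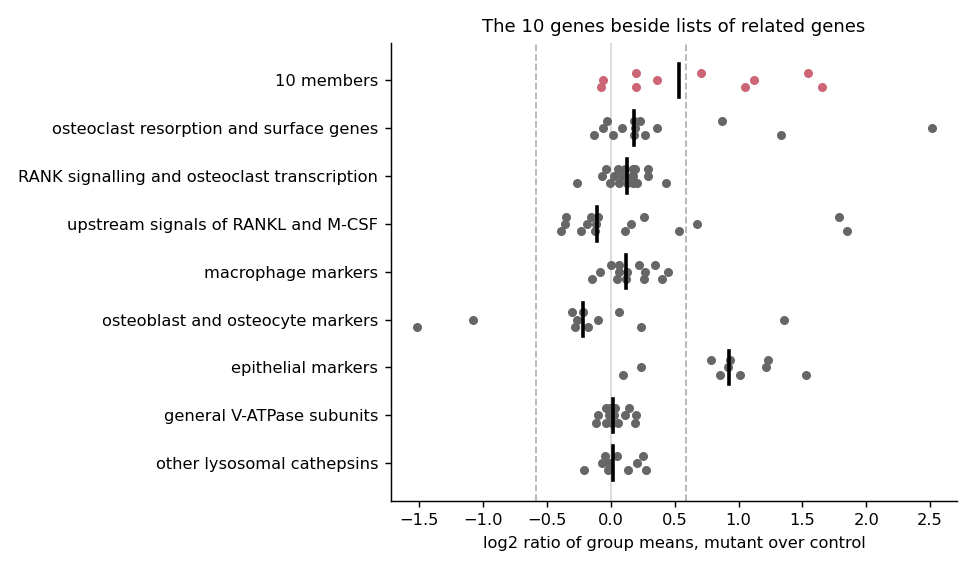
Log2 ratio of the authors' group means, mutant over control, with 1 point a gene for the 10 genes and for 8 lists of related genes, where the black line is the median and the dashed lines mark 1.5-fold. The 10 genes have a median of 0.53, macrophage markers 0.12, general proton pump (V-ATPase) subunits 0.02 and epithelial markers 0.93.

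Markers of other cells differed between the groups as well. Of the 10 epithelial markers reported here the 8 past 1.5-fold were all higher in the mutants, against 7.37% of all genes, and the median of the log2 ratios was 0.93. The keratin genes *Krt5* and *Krt17* had log2 ratios of 1.22 and 1.23, *Krt14* 1.01, the desmosome gene *Dsp* 0.93 and the transcription factor gene *Trp63* 0.92. Of the epithelial markers with recovered reads, *Krt18* overlapped between the groups, and *Cldn4*, named after its values were seen, had 5, 17 and 6 reads in the controls and 36, 44 and 20 in the mutants. Their part in the values of *Acp5*, *Atp6v0d2* and *Tnfsf11* was not tested.

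Of 12 osteoblast and osteocyte markers, cells that carry RANKL and OPG in bone, 11 were analysed, and 1 was past 1.5-fold higher and 2 lower in the mutants. Over all genes 7.37% were this far higher and 5.8% this far lower. *Spp1*, the osteopontin gene, which osteoclasts also express, had means of 38.9 (control) and 99.2 (mutant). *Col1a1*, the collagen gene of highest mean, had 21211 and 17127. *Dmp1*, a gene of odontoblasts and osteocytes, had means of 68.1 (control) and 23.7 (mutant), but control 2 stood apart, with a normalized signal of 160 against 23.0 and 21.8 in controls 1 and 3 and 14.7 to 37.8 in the mutants. *Sost*, an osteocyte gene named after its values were seen, was likewise 17.5 in control 2 and 1.86 to 5.01 in the other 5 libraries. *Tnfrsf11b* also had its highest control value in control 2, and its limma difference was 0.74 without that library (adjusted p = 0.224) and 0.13 without control 1 (adjusted p = 0.911), the control with the lowest value.

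Among the mutants, mutant 3 had the lowest value for all 6 of the genes with recovered reads. Over the 3965 recovered genes mutant 3 was the lowest of the mutants in 35.4%. Of the list genes with recovered reads, *Il1a*, *Cldn4*, *Krt18*, *Plcg2*, *Sfrp1*, *C1qa*, *C1qb*, *Dmp1* and *Ctsz* were also lowest in mutant 3. *Oscar*, *Il11* and *Ibsp* were lowest in mutant 1, and *Tnf* and *Sost* in mutant 2. A low mutant 3 was thus not particular to the 6 genes.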

How the data were processed

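Bulk RNA-seq of 3 control and 3 mutant samples was analysed from the deposited tables. The authors trimmed reads, aligned them to mm10 and compared groups in Partek Flow, and the submitters' processing notes name TopHat2 2.0.8. The counting method, its use of strand and the annotation are not given in the sources used here. The deposited values are group means of a normalized signal, which the authors brought to a common upper quartile per library (44.57 to 44.58). The columns of the authors' own comparison (p-value, FDR, ratio and fold change) were not used, nor were 4 further columns of values per library.

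Ratios of the 2 group means were formed without a test, as planned. Added after the data were seen, reads per library were recovered where the sum of a group's values (reads plus 1, times the library's lowest value) had 1 whole-number solution, within a tolerance that allows 0.01 chance solutions a search. Of the means searched, up to 100 in value, 26.4% of the control and 25.3% of the mutant means had 1 solution, against 0.721% and 0.894% of shifted sums. The 3965 genes solved in both groups were used. They lean to low values, with a median mean of 0.462 against 12.5 over all genes, and adjusted p-values (Benjamini-Hochberg) cover these genes only. Log2 signal was tested with limma 3.58.1 (trend, R 4.3.3), with a threshold of 0.1. Both steps were tested on simulated data. The *Tnfsf11* to *Tnfrsf11b* ratio was tested by an exact permutation test (scipy 1.17.1). Intervals on reads cover counting error only. The labels do not tie each library to 1 mouse, so p-values measure the spread between these libraries, which may be technical.

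All 10 genes are named, with, from each list, genes past 1.5-fold with a mean of at least 10 (at most 5) and the gene of highest mean, and *Arid1b* as the label check. The genes and lists were chosen with earlier results of these data known. Some genes of the lists are not reported here, and the counts, sums and medians of their lists leave them out. Positions and exon lengths are from GENCODE M21 (GRCm38, also named mm10). RefSeq promoters matched 5 of the 10 genes. *Dcstamp*, *Ocstamp*, *Atp6v0d2*, *Tnfrsf11b* and *Csf1r* had no sequence used here. Alternatives were other folds, a filter on low means, removal of the added read, a pseudocount of 1, centring, other limma settings, a replicate block and leaving out each library.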

Additional observations from a re-analysis of the deposited data

How the results depend on the processing

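Of the 5 genes past 1.5-fold, 1 was left (*Acp5*) with a mean of at least 10, and 2 with a pseudocount of 1, which exceeds the means of the lowest genes. That pseudocount also took the median log2 ratio to 0.19 for the 10 genes and 0.13 for the 5 osteoclast genes, and the change of the *Tnfsf11* to *Tnfrsf11b* ratio to 0.21. It took the log2 ratio of *Atp6v0d2* to 0.81. Other folds, subtraction of the added read and centring left the results of the 10 genes within the limits set. In the lists, the number past the fold went from 8 to 4 epithelial markers at 2-fold, and at the lower of the folds tried from 3 to 7 upstream signals, from 0 to 3 macrophage markers and from 0 to 1 of the RANK signalling genes. When a mean of 10 was required, it went from 3 to 1 both for the osteoclast resorption list and for the upstream signals. Over the recovered genes, limma without its trend called 0 higher and 0 lower against 43 and 11, with *Atp6v0d2* at adjusted p = 0.315, while 233 and 174 genes had an unadjusted p under 0.05. With 1 library left out, 19 to 55 genes were called higher and 4 to 16 lower (fewest without mutant 2), the difference of the *Tnfsf11* to *Tnfrsf11b* ratio per library ran from 0.62 to 1.60, *Ctsk* ran from -0.18 to 0.022, turning positive without control 1, and *Ocstamp* to -0.25 without control 2 and -0.17 without mutant 1. No label pairs the libraries, and the values used here cannot show whether the replicate numbers do. With the replicate block limma called 62 genes higher, *Atp6v0d2* among them at adjusted p = 0.0820, and 14 lower. Reads limit *Dcstamp* and *Ocstamp* at 8 in all controls.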
